A study of Mus musculus with 6 samples.

Results

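The regions bound by ESRRB at 48 h and at 96 h after withdrawal of 2iL were compared across all genes. A region was a unique interval in the deposited list of 1 time, placed at the summit of its row with the highest fold enrichment. The 48 h list held 10970 regions and the 96 h list 7018, so 17988 of the 31755 regions in the 3 lists of the series entered the comparison. Merging overlapping regions left 12454 distinct places in the genome, of 18634 over all 3 lists. Regions were placed in 3 classes, shared where a 48 h and a 96 h region overlapped by at least 1 bp, 48 h only, and 96 h only.

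The study mapped ESRRB by chromatin immunoprecipitation and sequencing in E14 cells, a mouse embryonic stem cell line. Cells were grown on gelatin in N2B27, a serum-free medium, with 2iL, which is 3 µM of the GSK3 inhibitor CHIR99021, 1 µM of the MEK inhibitor PD0325901 and the cytokine LIF. The 48 h and 96 h groups were the same line collected 48 h and 96 h after 2iL was withdrawn, fixed in 1% formaldehyde and precipitated with a mouse monoclonal antibody against ESRRB. Each time was 1 library from 1 line with no replicate, so all differences below describe these libraries and carry no test, and a change of ESRRB binding cannot be told apart from a difference between the precipitations.

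ESRRB is an orphan nuclear receptor that binds DNA as a monomer at the extended half-site TCAAGGTCA. In naive mouse embryonic stem cells it is part of the transcription factor network that holds self-renewal, and it lies downstream of the GSK3 and TCF7L1 axis that CHIR99021 acts on. When 2iL is withdrawn, naive cells pass through a formative state on the way to lineage commitment. Estrogen-related receptors are also known as regulators of mitochondrial and energy metabolism genes, and in these cells ESRRB works with the coactivator NCOA3.

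Strength was read from the authors' fold enrichment, the ratio of precipitated reads to the expected background at the summit, which was used within each list and, across times, through ranks of equal length. Reads at each summit and the expected background were recovered from the deposited fold and p-value; 100% of the read numbers came out whole within 0.05 in both lists. A median region rested on 68 reads at 48 h and 45 at 96 h. The lowest expected background was 8.09 reads at 48 h and 5.84 at 96 h, a ratio of 1.38. The sources used here state no library totals. The part of this difference in the length of the 96 h list was not tested. In cross-linked bulk cells, fewer bound cells and weaker binding per cell cannot be told apart. Intervals in brackets are exact 95% intervals, binomial for shares and Poisson for the reads behind a fold, and cover counting error only.

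The consensus ESRRB element gives a direct view of the bound sequence where a region lay over a promoter. RefSeq promoter windows of GRCm38.p6 (the mm10 build of the files), 250 bases before to 50 after a start site, were searched on both strands for TCAAGGTCA. Of 21262 windows, which belong to 17491 of 21883 protein-coding genes, 71 held the element, or 0.334% (0.261 to 0.421). The stretches below are shown because each lies under a called region, and they stand for the windows covered at both times, at 48 h only and at 96 h only. They read 5′ to 3′ on the strand of the gene, with the element in capitals. In each stretch shown it appears as its reverse complement TGACCTTGA. Other windows covered at both times, at Timm8b, Sgms1, Msrb2, Nfkbid and Psmc3ip, held it as TCAAGGTCA on the strand of the gene.
Atp5g3, both times, chr2:73911350-73911398: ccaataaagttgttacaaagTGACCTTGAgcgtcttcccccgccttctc
Tmem191c, both times, chr16:17276094-17276142: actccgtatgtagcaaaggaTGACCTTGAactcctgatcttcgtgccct
Sgk1, both times, chr10:21978589-21978637: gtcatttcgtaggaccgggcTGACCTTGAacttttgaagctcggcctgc
Hcn2, both times, chr10:79716446-79716494: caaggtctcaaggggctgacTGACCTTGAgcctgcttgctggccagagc
Gjb1, 48 h only, chrX:101381990-101382038: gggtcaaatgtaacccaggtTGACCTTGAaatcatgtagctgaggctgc
Syt2, 48 h only, chr1:134646425-134646473: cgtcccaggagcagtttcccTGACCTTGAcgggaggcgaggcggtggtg
Myh7b, 96 h only, chr2:155611177-155611225: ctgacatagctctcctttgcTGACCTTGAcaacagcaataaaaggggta
The element of Atp5g3, which encodes subunit c of the mitochondrial ATP synthase, lay 48 bases upstream of the start site. The region over it had a fold of 10.3 at 48 h and 15 at 96 h, with its summit 14 and 5 bases from the centre of the element. Its rank among the 5231 one-to-one pairs described below was 861 at 48 h and 169 at 96 h. Sgk1, a serum- and glucocorticoid-induced kinase gene, had an element 59 bases upstream, with a fold of 9.20 and pair rank 1185 at 48 h against 4.17 and 3917 at 96 h. The summits of the Sgk1 regions were 5 and 17 bases from the element. Hcn2, a pacemaker channel gene, ranked 2147 among the pairs at 48 h and 757 at 96 h, and Tmem191c 429 and 1403. The 96 h only region over the promoter of Myh7b, a myosin heavy chain gene, had a fold of 7.01 and its summit 61 bases from the element. Its 48 h only counterparts at Gjb1, a connexin gene, and Syt2, a synaptotagmin gene, had folds of 4.63 and 2.68, with summits 88 and 45 bases away. The third window of that class, at Psap, a saposin precursor gene, lay under a region with a fold of 3.24 whose summit was 586 bases away. So the same letters lay under regions that ranked higher at 48 h, regions that ranked higher at 96 h, and regions called at 1 time.

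Regions covered 898 promoter windows at 48 h, 4.22% of all, and 708 at 96 h, 3.33%. Of these, 531 were covered at both times, 367 at 48 h only and 177 at 96 h only. The element was present in 13 of the 531 windows covered at both times, or 2.45% (1.31 to 4.15). It was present in 3 of the 367 covered at 48 h only, 0.817% (0.169 to 2.37), in 1 of the 177 covered at 96 h only, 0.565% (0.0143 to 3.11), and in 0.267% of those covered at neither. The shorter half-site AAGGTCA, which the full element contains, followed the same order, at 12.2% (9.58 to 15.3) of windows covered at both times, 7.90% (5.36 to 11.2) at 48 h only and 6.21% (3.14 to 10.8) at 96 h only, against 4.08% of all windows. For both motifs the intervals of all 3 classes overlapped one another, so the order is not resolved. The TFAP2 motif GCCNNNGGC was found in 27.5%, 30.8% and 28.2% of these classes and 19.9% of all windows, a similar share in each. The E-box CACGTG was in 12.1%, 12.3% and 6.78%, against 7.84% of all. The KLF motif GGGTGTGG was in 5.65%, 3.27% and 5.65% (3.63% of all), the octamer ATGCAAAT in 1.13%, 2.45% and 1.13% (1.66% of all), the AP-1 motif TGANTCA in 5.65%, 4.36% and 6.78% (6.99% of all), and the GRHL motif AACCGGTT in 0.445% of windows covered at 48 h and 0.424% of those covered at 96 h (0.179% of all). A match of letters is a description of the window and not evidence of a bound site.

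Most of what was called at 96 h was also called at 48 h, while slightly more 48 h regions were absent from the 96 h list than present in it. Of the 48 h regions, 5411 overlapped a 96 h region, or 49.3% (48.4 to 50.3). Of the 96 h regions, 5496 overlapped a 48 h region, or 78.3% (77.3 to 79.3). The remainder were 5559 regions called at 48 h only and 1522 called at 96 h only. With both lists held to the same length by fold the shares were 61.7% and 63.1%, close to each other.

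Strength separated the classes. Shared regions had a median fold of 6.32 in the 48 h list, and 48 h only regions 4.29, with medians of 94 and 54 reads and widths of 1134 and 850 bp. In the 96 h list the medians were 5.30 for shared and 3.8 for 96 h only regions, on medians of 50 and 33 reads and 934 and 711 bp. Each list was cut by fold into 5 groups of equal size. Of the strongest group of 48 h regions 88.4% (87.0 to 89.7) were called at 96 h, and of the following groups 61.4%, 40.8%, 30.3% and 25.7%. Of the strongest group of 96 h regions 98.6% were called at 48 h, and of the following groups 91.8%, 80.2%, 66.5% and 54.5%. All of the 100 strongest regions of each list were shared. The strongest 48 h only region stood at rank 177 of its list and the strongest 96 h only region at rank 430.

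**Figure D1:**
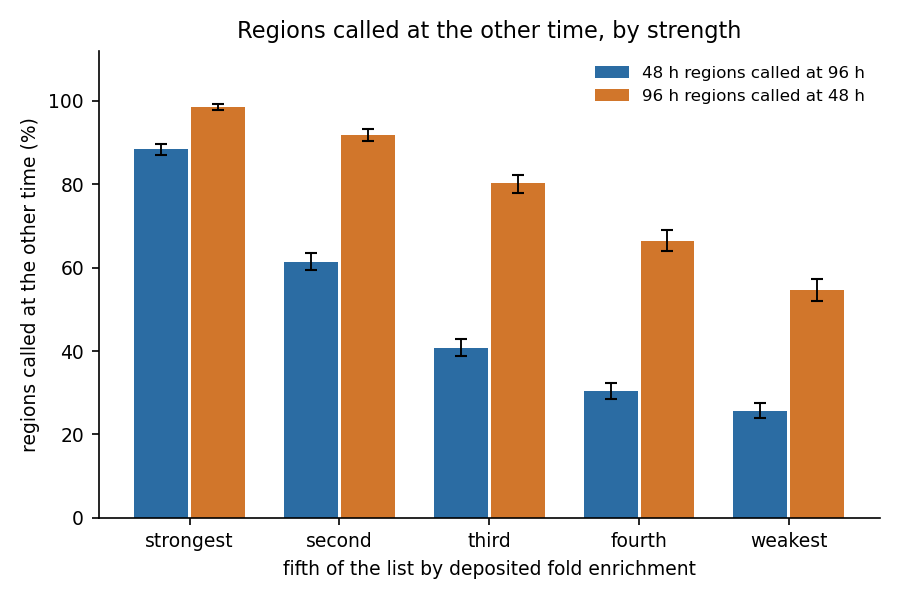
Share of regions called at the other time (y axis, %) for each of 5 equal groups of the 48 h list (blue) and the 96 h list (orange), ordered by deposited fold enrichment from strongest to weakest; error bars are exact 95% binomial intervals. Shares ran from 88.4% down to 25.7% for 48 h regions and from 98.6% down to 54.5% for 96 h regions.

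The classes also differed in whether the place had been called in 2iL, which the choice of members did not use. Of the shared regions, 79.4% at 48 h and 79.3% at 96 h overlapped a 2iL region. Of the 48 h only regions 48.0% (46.7 to 49.4) did, and of the 96 h only regions 34.2% (31.8 to 36.7). Thus 521 of the 1522 regions of the 96 h only class were called in 2iL, not called at 48 h and called again at 96 h. By chromosome the share of 48 h regions called at 96 h lay between 43.6% on chromosome 14 and 54.8% on chromosome 8, leaving out chromosome Y with its 4 regions.

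The overlapping regions formed 5231 one-to-one pairs, and within them the bound position moved little. The summits of a pair lay a median of 26 bp apart, 90.9% of pairs had summits within 100 bp, and 98 pairs had them over 500 bp apart. The folds of the 2 members correlated across pairs with Pearson's r of 0.698 on the log2 scale and Spearman's rho of 0.661, as a description over pairs that share library and caller. Raw folds were mostly lower at 96 h, with medians over pairs of 6.32 at 48 h and 5.32 at 96 h. The fold was higher at 96 h in 35.4% of pairs, so a lower fold there need not be a loss in rank. To compare times, the pairs were ranked by fold at each time, 1 being the highest. Of them 2641 pairs, or 50.5%, were nearer the top at 96 h.

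The top of both lists was largely the same set of places. A region inside Pld1, a phospholipase D gene, at chr3:28113083-28116306, was first at 48 h with a fold of 42.8 (38.7 to 47.3) and the second at 96 h with 47.6 (42.8 to 52.8). A region 1.05 kb outside Pdgfa, a growth factor gene, had 33.9 and 38.9, and one inside Myrip 38.5 and 32.9. At Nrip1, a corepressor gene of nuclear receptors, the region inside the gene had 32.8 and 36.2 and ranked 5 in each list. A region 51.5 kb from Klf4, a naive pluripotency factor, had 33.8 and 30.3, and one 31.5 kb from Mbip 31.5 and 33.9. These 6 were among the 10 highest at both times.

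Other regions of the top 10 changed place. The first of the 96 h list, inside the calpain gene Capn2 at chr1:182499834-182501789, had a fold of 60.9 (55.2 to 67.0) at 96 h and 24.6 (22.5 to 27.0) at 48 h, where it ranked 20. Its summit held 423 reads at 96 h and 465 at 48 h, and the expected background was 5.96 reads at 96 h and 17.9 at 48 h. By reads it ranked 2 among the pairs at both times. Near Tsr2 the fold was 26.3 at 48 h and 38.9 at 96 h, and near Gm9733 18.6 and 32.5, whereas the region at Ccdc138 had 27.3 and 32.5. In the other direction, a region 72.8 kb from Cacna2d3, a calcium channel subunit gene, had 30.9 (27.4 to 34.7) at 48 h and 13.4 (11.1 to 16.0) at 96 h. The region nearest to Fam240b had 29.7 and 12.0, that inside Tbc1d1 29.4 and 20.5, and that at Hey2, a bHLH repressor gene, 31.7 and 23.6. By reads the pairs at Cacna2d3, Fam240b and Tbc1d1 also lost rank, but the Hey2 pair moved nearer the top, from rank 55 at 48 h to 17.5 at 96 h. All of these remained called at both times.

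**Figure D2:**
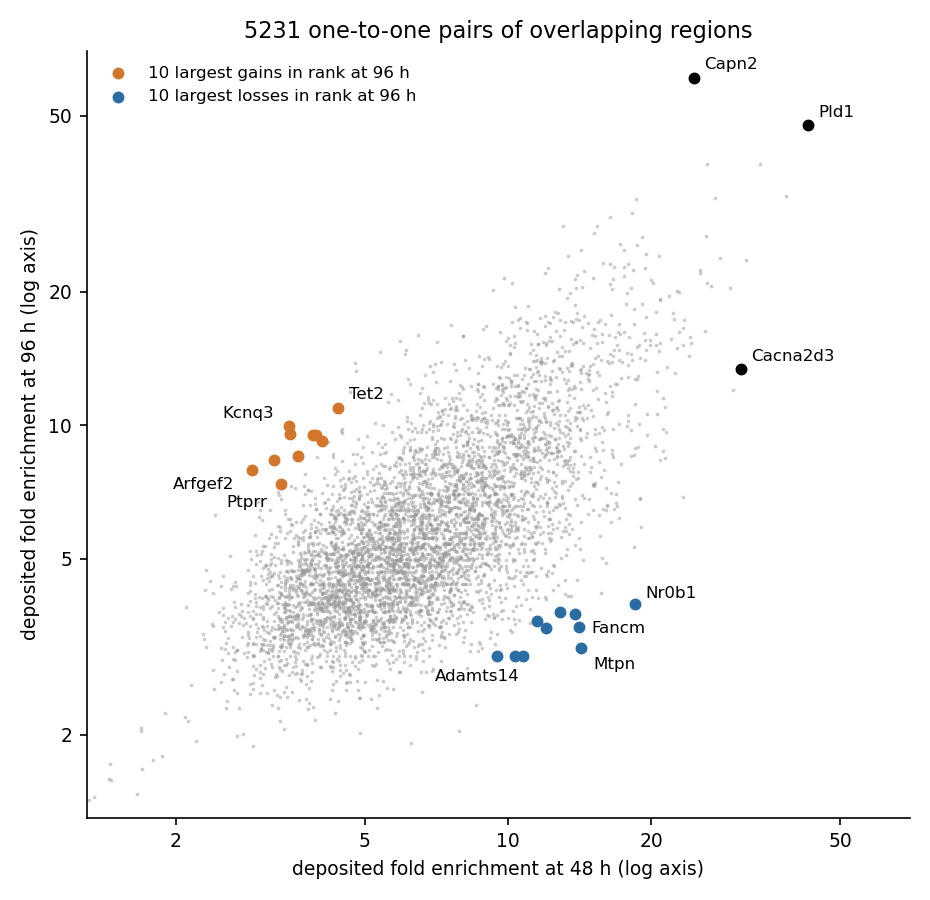
Deposited fold enrichment at 48 h (x axis) and 96 h (y axis), both log axes, for the 5231 one-to-one pairs of overlapping regions (grey). The 10 largest gains in rank at 96 h (orange), including Tet2 at 4.40 and 11, lie above the cloud and the 10 largest losses (blue), including Nr0b1 at 18.5 and 3.94, below it; Capn2, Pld1 and Cacna2d3 (black) are regions of the top of the lists.

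The largest losses in rank among the pairs included a known pluripotency target. The region 4.35 kb upstream of Nr0b1, which encodes the orphan receptor DAX1, at chrX:86186958-86188569, had a fold of 18.5 (15.8 to 21.5) on 167 reads at 48 h and 3.94 (2.63 to 5.71) on 26 reads at 96 h. Its pair rank went from 83.5 to 4179. In 2iL the fold there was 15. The other 9 largest losses lay nearest to Mtpn, Fancm, Pom121l12, Ttc25, Mboat1, Mkln1, Tas2r134, Mroh6 and Adamts14, with folds of 9.50 to 14.2 at 48 h and 3.02 to 3.79 at 96 h. The regions at Fancm, a Fanconi anemia helicase gene, had 137 and 35 reads. All 10 losses kept their direction when pairs were ranked by reads at the summit in place of fold. The change in rank by reads ran from -380.5 at Mboat1 to -4296.5 at Nr0b1, against -4191 and -4095.5 by fold. The pairs were picked as extremes of fold and the reads were solved from that fold and its p-value, so this is no independent check.

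The largest gains included a region 46.6 kb upstream of Tet2, the methylcytosine dioxygenase gene, at chr3:133590213-133591643. It had a fold of 4.40 (3.16 to 5.97) on 39 reads at 48 h and 11 (8.64 to 13.7) on 74 reads at 96 h, and its pair rank went from 4157.5 to 450.5. The fold in 2iL was 7.33. The other 9 lay nearest to Kcnq3, Unc5a, Arfgef2, Mb21d2, Tlr2, Snx9, Glrp1, Art3 and Ptprr, with folds of 2.90 to 4.06 at 48 h and 7.36 to 9.93 at 96 h. At Unc5a, a netrin receptor gene, the summit lay 0.796 kb from the start site at 48 h and the pair had 91 and 97 reads, over an expected background of 25.5 and 9.27. The 2 summits lay 1098 bp apart at Arfgef2 and 683 bp apart at Snx9, so their values at the 2 times were read at different positions. Over the 10 gains the median background ratio, 48 h over 96 h, was 2.09, over the 10 losses 0.953, and over all pairs 1.59, so background moved with these ranks. All 10 gains also kept their direction when pairs were ranked by reads, which is no independent check here either.

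The strongest 48 h only regions lay near genes of varied function, and 9 of the 10 had been called in 2iL. The strongest was inside Capsl at chr15:9451920-9453764, with a fold of 16.0 (13.5 to 18.8) on 147 reads, and 11.6 in 2iL. The next lay nearest to Plpp4 at 15.6, Hnrnpc, an hnRNP gene, at 14.5, Frk, a Src-family kinase gene, at 13.0 and Auh at 12.6. Those nearest to Bckdhb, Slc37a3, Tfdp2, Hs6st2 and Ncapd3 had 11.8 to 12.4. The Hs6st2 region was the one not called in 2iL, and it also lay within 500 bp of a 96 h region without overlapping it. None of the other 9 did.

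The strongest 96 h only regions were weaker, and 5 of the 10 had been called in 2iL. The strongest lay 0.588 kb outside Nuak1, an AMPK-related kinase gene, at chr10:84367791-84370912, with a fold of 11.4 (9.02 to 14.2) on 77 reads. A region 17.2 kb upstream of Nanog, a core factor of naive pluripotency, at chr6:122690033-122691071, had a fold of 8.76 (6.76 to 11.2) on 63 reads. In 2iL the fold of that place was 10.5. The others lay nearest to Gap43, Mbip, Gata3, Rnf32, Slc36a3, Dtwd2, Ppm1h and Prmt6, with 8.04 to 10.2. The Gata3 region was 613 kb from the gene and the Prmt6 region 1120 kb, so that nearness to a gene is only a label there.

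Regions of the 48 h list close to start sites were called at 96 h more often than others, and their median fold was lower. The 336 regions at 48 h and 205 at 96 h on chromosome 18, for which the window table holds no entry, were left out here, and distances are to the nearest start site in the RefSeq table. Of the 48 h regions with the summit within 1 kb of a RefSeq start site, 61.8% (58.4 to 65.1) were called at 96 h, with a median fold of 4.06. Of those at 1 to 10 kb, 10 to 50 kb and over 50 kb, 51.7%, 47.8% and 47.3% were, with median folds of 4.95 to 5.17. Accordingly 9.91% (9.12 to 10.8) of shared and 5.99% (5.37 to 6.65) of 48 h only regions lay within 1 kb of a start site. This held in each of the 5 groups of the 48 h list by fold, from 4.53% against 0.816% in the strongest to 23.7% against 13.4% in the weakest. For the 96 h list the shares called at 48 h were 76.8% within 1 kb and 77.8% to 79.6% farther away. There 9.78% of shared and 10.7% of 96 h only regions lay within 1 kb, with overlapping intervals. Within groups of like fold the shares were 5.6% of shared and 2 of 19 of the 96 h only regions in the strongest, then 8.32% against 1.79%, 8.93% against 4.07% and 12.8% against 6.78%, these 3 with intervals that did not overlap, and 17.4% against 18.1% in the weakest. Over the whole list the sign of the difference turned with the overlap asked for, to 0.413 percentage points more for shared regions when at least 50% of both regions had to overlap.

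Pairs near start sites also stood nearer the top at 96 h. Of the 506 pairs within 1 kb, 59.7% (55.3 to 64.0) were nearer the top at 96 h, against 48.7%, 51.4% and 47.9% at the 3 greater distances. Ranked by reads in place of fold, the share was 71.5% within 1 kb and 47.1% to 49.6% farther away. Pairs within 1 kb had lower median folds than all pairs but more reads, at medians of 108 at 48 h and 68 at 96 h, against 94 and 51. The expected background at pairs within 1 kb was higher, at medians of 22.3 reads at 48 h and 14.5 at 96 h, against 13.8 and 7.95 over all pairs. Its part in the result was not tested.

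**Figure D3:**
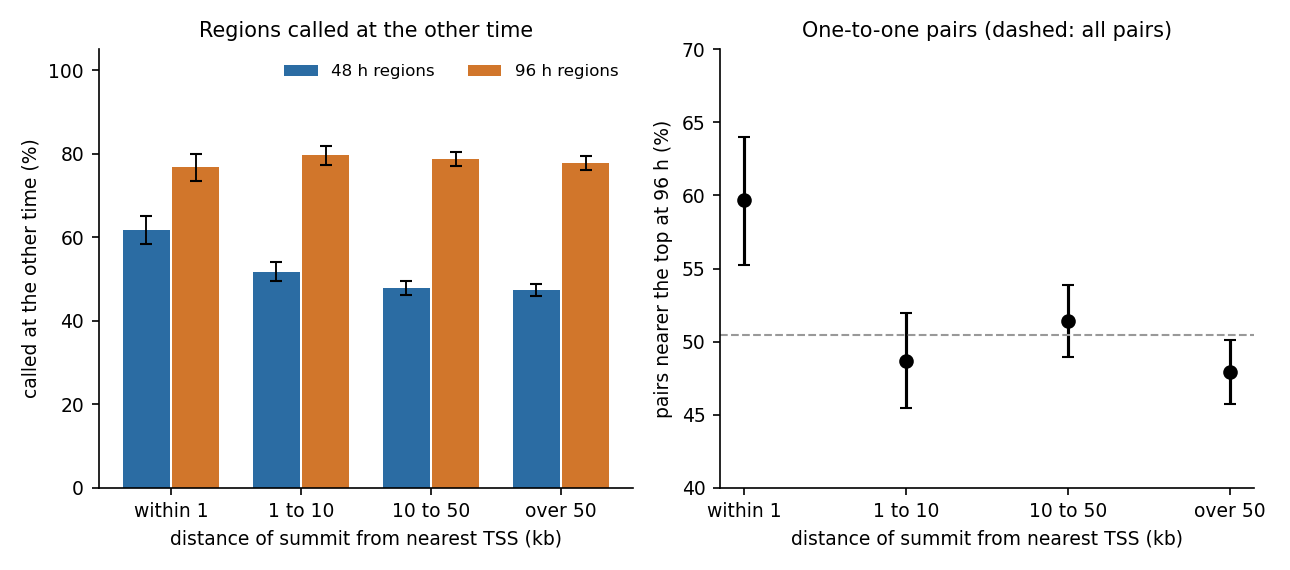
Left, share of regions called at the other time (y axis, %) by distance of the summit from the nearest start site (x axis, kb) for 48 h (blue) and 96 h (orange) regions. Right, share of one-to-one pairs nearer the top at 96 h (y axis, %, from 40) at the same distances, with the dashed line at 50.5% for all pairs; error bars are exact 95% binomial intervals, and the pairs within 1 kb stand at 59.7%.

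Promoters under strong regions are given next, chosen after their values were seen, with the fold of the highest summit of the region over each. The region over the promoter of Ldhb, a lactate dehydrogenase gene, had a fold of 11.8 at 48 h and 17.7 at 96 h, and that over Eno1, a glycolytic enolase gene, 14.2 and 15.6. Spp1, the osteopontin gene, had 11.2 and 15.2. The regions over Klk1, Gtf2ird1, Icam1 and Upp1 had 15.8 to 18.9 at 48 h and 9.76 to 12.4 at 96 h. Among promoters whose region was called at 48 h only, the strongest was Nr0b1, at 10.9 (8.89 to 13.2), followed by Akap11 at 9.18 and Gca at 7.92. Those called at 96 h only were led by Ifitm10 at 8.03, Myh7b at 7.01, Lrrc9 at 5.66 and Cyp1a1, a xenobiotic-metabolising P450 gene, at 5.34.

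Counted by gene, the 96 h list reached fewer genes as deposited, and more at equal length. Of 21883 protein-coding genes, 10919 (49.9%) had a 48 h region within 50 kb and 8657 (39.6%) a 96 h region. With both lists held to the same length the counts were 8073 at 48 h and 8657 at 96 h, so the direction turned. With a distance of 10 kb they were 5932 and 4403. Both times reached 7847 genes, 48 h alone 3072 and 96 h alone 810. Fewer regions at 96 h than at 48 h were found for 6225 genes (28.4%), and more for 1628 (7.44%). The genes with the most 48 h only regions were long. Magi1, a scaffold gene of cell junctions spanning 608 kb, had 22 regions at 48 h, 13 of them 48 h only, and 11 at 96 h. Megf11 had 12 and 3, Clybl 13 and 5, and Iqgap2 8 and 0. The most 96 h only regions lay near Etl4, with 14 regions at 48 h and 16 at 96 h, 7 of them 96 h only. Myh9, a nonmuscle myosin gene, and Cfdp1 each went from 2 to 6 regions, Sipa1l3 from 5 to 8 and Atp2b2, a calcium pump gene, from 3 to 5.

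Gene lists were described by the regions with the summit within 50 kb of a member. Of the 55 regions at 48 h near the 20 naive pluripotency genes, 35 (63.6%, 49.6 to 76.2) were called at 96 h, against 49.3% of all. These regions were also stronger, with a median fold of 6.64 against 4.98 for the whole 48 h list. Of the 55, 23 were in the strongest of the 5 groups by fold, in which 88.4% of all regions were called at 96 h. The part of strength in the share was not tested. Of the 47 regions at 96 h, 37 (78.7%) were called at 48 h, against 78.3%. Of their 34 one-to-one pairs, 12 were nearer the top at 96 h by fold and 9 by reads, against 50.5% and 51.1% of all pairs. At Esrrb itself, named after its values were seen, all 4 regions were shared, and the strongest, 80.2 kb into the gene, had folds of 17.8 and 19.9 with 347 and 164 reads. Its pair rank was 104 at 48 h and 57 at 96 h by fold, but 32 and 144 by reads. Gbx2 and Tcl1 had no region at either time.

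At the naive genes folds differed both ways within a locus. Where only folds are given, a lower value at 96 h is not by itself a change, because the fold was higher at 96 h in only 35.4% of all pairs. At Nr0b1, besides the upstream region already described, the promoter region at chrX:86191382-86192225 with a fold of 10.9 and the region 10.4 kb upstream with 6.93 were 48 h only, and the region 1.83 kb downstream of the start site had 8.03 and 6.14. At Nanog the promoter region had 5.29 (4.40 to 6.31) at 48 h and 2.30 (1.69 to 3.07) at 96 h, while regions 17.2 and 4.55 kb upstream, with 8.76 and 4.67, were 96 h only and had been called in 2iL. At Zfp42, which encodes REX1, the region 14.1 kb upstream had 11.7 (10.3 to 13.2) and 17.4 (15 to 20.2), with pair ranks of 554 and 80 by fold and 176 and 109 by reads. The region 26.6 kb upstream had 11 and 7.07, and one 18.9 kb downstream of the start, at 7.74, was 48 h only. At Klf2 the strongest region had 16.4 and 12.3, at Klf5 13.9 and 7.55, and at Socs3, a LIF target, 17.8 and 14.6. Jam2 had one region at 9.66 and 13.5, higher at 96 h in rank by fold (1038 and 243) but not by reads (267 and 744.5), and others at 10.8 and 5.26 and at 8.37 and 4.77.

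**Figure D4:**
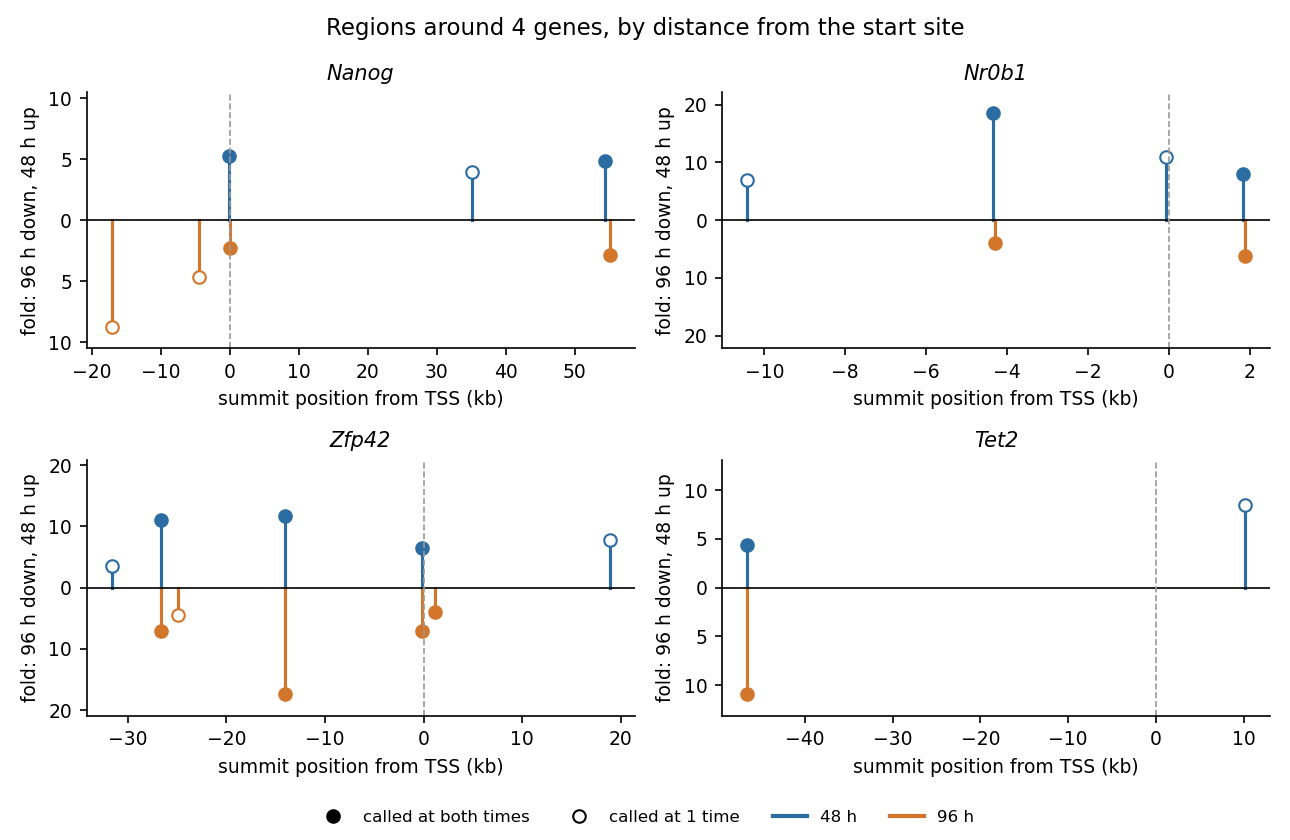
Regions whose nearest start site is that of Nanog, Nr0b1, Zfp42 or Tet2, placed by the distance of the summit from that start site (x axis, kb, negative upstream); stems show the deposited fold enrichment, 48 h upward (blue) and 96 h downward (orange), and open circles mark regions called at 1 time. At Nr0b1 the stem at 4.35 kb upstream is 18.5 at 48 h and 3.94 at 96 h. At Nanog the 2 upstream regions were called at 96 h and not at 48 h, and both had been called in 2iL, which is not drawn.

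The core pluripotency genes had fewer regions at 96 h for 9 of 14 members, more for 1 and as many for 4. Over all genes 28.4% had fewer, 7.44% more and 17.7% an equal number above 0. These bases are unlike, because 46.4% of all genes had no region at either time and all 14 core genes had one. Of 39 regions at 48 h near the 14 genes, 23 (59.0%, 42.1 to 74.4) were called at 96 h, and 23 of the 26 regions at 96 h were called at 48 h, against 49.3% and 78.3% of all. Of 23 pairs 9 were nearer the top at 96 h by fold and 6 by reads. At Utf1 the region 6.47 kb upstream, which was not called in 2iL, had 8.68 (7.44 to 10.1) and 14.3 (12.1 to 16.9), while that 1.91 kb downstream of the start had 6.13 and 3.58. At Sox2 the strongest region had 11.3 and 13.0. Near Rif1 the strongest had 16.2 and 6.57. At Foxd3, of 4 regions at 48 h, 3 were 48 h only and the remaining one had 8.25 and 3.94. Pou5f1, the OCT4 gene, had 5 regions at 48 h, 2 of them called at 96 h, with 8.48 and 5.31 at the strongest. Zfp281 and Trim28 had their strongest regions at 13.5 and 10.1 and at 14.9 and 14.9. Rif1 and Foxd3 were named after their values were seen.

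Of the regions near the 22 formative genes at 48 h, 29 of 50 (58.0%, 43.2 to 71.8) were called at 96 h, and 33 of 44 regions at 96 h were called at 48 h, against the same 49.3% and 78.3%. Of their 22 pairs, 14 were nearer the top at 96 h by fold and 11 by reads. The strongest region at Otx2, a formative regulator, had 15 and 16. At Lef1, the Wnt effector gene, the strongest, 22.1 kb outside the gene, had 12.4 (10.8 to 14.1) and 15.5 (13.2 to 18.1), with pair ranks of 443 and 144 by fold and 328.5 and 172.5 by reads. Etv5, an ETS factor gene, had 6 regions at 48 h, of which 4 were 48 h only. Its region with the highest fold at 96 h had 10.2 (9.05 to 11.5) and 18.5 (15.7 to 21.6), on 270 and 152 reads, and the one with the highest fold at 48 h had 10.6 and 11.3. At their strongest regions Dnmt3l had 9.98 and 11.1, Tcf15 15.3 and 15.2 and Tead2 13.1 and 8.10. Tead2 and Tcf15 each had 2 regions at 48 h and 4 at 96 h, of which 2 and 1 were 96 h only. Grhl2, named after its values were seen, had 2 and 5, and 3 were 96 h only. Fewer regions at 96 h than at 48 h were found for 10 of the 22 genes and more for 4, against 28.4% and 7.44% of all genes. Sox3, Sall2, Lin28b, Cldn6 and Cdh2 had no region at either time.

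Near the 13 genes of nuclear receptor coregulators 19 of 30 regions at 48 h (63.3%, 43.9 to 80.1) were called at 96 h and 21 of 24 at 96 h were called at 48 h, beside 49.3% and 78.3% of all regions. Among their 17 pairs, 7 were nearer the top at 96 h by fold and 8 by reads, against 50.5% and 51.1% of all pairs. Near Ncoa3, the coactivator gene, the strongest region had 18.2 (16.2 to 20.4) and 30.1 (26.4 to 34.2), with pair ranks of 91 and 8 by fold and 71 and 39 by reads. At Tbl1xr1, a corepressor subunit gene, the strongest had 17.5 and 24.8, pair ranks of 109 and 17 by fold but 120.5 and 132 by reads. The Nrip1 region was described above. The region near Med1, named after its values were seen, had 13.6 and 7.41. Ncoa1 had 4 regions at 48 h, of which 3 were 48 h only, and Ncoa2 and Carm1 each had shared and unshared regions. Hdac3 had no region.

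Of the regions near energy metabolism genes at 96 h, every one, 21 of 21, had been called at 48 h (83.9 to 100%), against 78.3% of all 96 h regions. The share was 81.0% when at least 50% of both regions had to overlap, against 67.5% of all 96 h regions at that setting. At 48 h the 20 genes had 35 regions and 20 of them (57.1%, 39.4 to 73.7) were called at 96 h, against 49.3% of all. Of 19 pairs 10 were nearer the top at 96 h by fold and 13 by reads. The region 0.53 kb from the start site of Esrra, which encodes a related receptor, had 9.50 and 9.51, and that at Sdha, a succinate dehydrogenase gene, 6.58 (5.73 to 7.52) and 8.85 (7.41 to 10.5). The Sdha pair ranked 2446 and 813 by fold and 387 and 293 by reads. Cs, the citrate synthase gene, had 8.33 and 5.14 and Atp5b 9.25 and 6.18. Both regions near Mdh2, at 5.55 and 3.90, were 48 h only, and Ndufs1 and Atp5a1 had shared and 48 h only regions. Sdha was named after its values were seen. Ppargc1a and Ppargc1b had no region.

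For targets of the pathways that 2iL acts on, the share was near that of all regions. Of 39 regions at 48 h near the 17 genes, 20 (51.3%, 34.8 to 67.6) were called at 96 h, and 23 of 28 at 96 h were called at 48 h, beside 49.3% and 78.3%. Among their 18 pairs, 11 were nearer the top at 96 h by fold and 12 by reads, against 50.5% and 51.1% of all pairs. Both regions at Axin2, a Wnt target, with 7.76 and 3.8, were 48 h only, as were both at Tcf7. All regions at Sp5, Dusp4 and Egr1 were shared, and 2 of the 3 regions at 96 h near Fos were 96 h only. Spry2, a target of the ERK pathway, had 4 of 6 regions called at 96 h, the strongest at 11 and 9.13, Spry4 3 of 5 and Cdx1 1 of 3. Nkd1, Ccnd1 and Myc had no region. Axin2, Tcf7, Sp5, Dusp4, Egr1 and Fos were named after their values were seen.

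Of the 16 neural genes 7 lay near a 48 h region and 4 near a 96 h region, and of the 16 mesoderm and endoderm genes 8 and 6, against 49.9% and 39.6% of all genes. The neural genes had 11 regions at 48 h, 4 of them called at 96 h, and 8 at 96 h, 4 of them called at 48 h, against 49.3% and 78.3% of all regions. None exceeded a fold of 6.64, at Dll1, which was 48 h only, as was the region 0.837 kb from the start of Tubb3, at 5.31. Sox1, Pax6, Msi1 and Sox21 also had regions called at 1 time, and 9 neural genes, among them Neurog1 and Neurod1, had none. The mesoderm and endoderm genes had 12 and 9 regions, 5 shared, with Eomes at 9.14 and 4.80 and Hhex at 10.7 and 7.60. The regions at Gata6, Bmp4 and Cxcr4 were 48 h only. Both regions near T and the 1 region near Mesp1, at 4.32, were 96 h only, and so was a further region near Eomes. In this list 7 of the 12 regions were 48 h only and 4 of the 9 were 96 h only. T and Mesp1 were named after their values were seen. At Nodal, a TGF-beta ligand gene, the region 1.92 kb upstream, at 5.50, was 48 h only, and the one 11.8 kb upstream had 3.05 and 4.76.

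For the trophoblast list, 15 of 22 regions at 48 h (68.2%, 45.1 to 86.1) were called at 96 h and 17 of 19 at 96 h were called at 48 h, against 49.3% and 78.3% of all. The interval of the first share includes that of all regions. Tfap2c had 8 regions at 48 h, the strongest at 17.5 and 14.4. Among the 14 pairs of this list, 9 were nearer the top at 96 h by fold and 7 by reads, against 50.5% and 51.1% of all pairs. Fgfr2, an FGF receptor gene, had adjacent regions at 13.3 (11.7 to 15.2) and 4.12 (3.24 to 5.15) and at 8.68 and 4.04, and a further one, 4.38 kb into the gene, at 4.27 and 6.46. It had 3 regions at 48 h and 5 at 96 h, 2 of them 96 h only. Near Cdx2 1 of 2 regions was shared and near Id2 2 of 3, whereas the regions at Hand1 and Gata3 were 48 h only. Ascl2, Elf5, Krt7, Krt8, Krt18 and Tpbpa had none.

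Near adhesion genes 17 of 25 regions at 48 h (68.0%, 46.5 to 85.1) were called at 96 h, beside 49.3% of all. Cdh1, the E-cadherin gene, had 10 regions at 48 h, of which 6 were called at 96 h. The region 15.4 kb upstream of Cldn3, a claudin gene, at chr5:134970534-134971422, had 4.76 (3.83 to 5.84) on 89 reads at 48 h and 13.8 (11.4 to 16.6) on 113 reads at 96 h, with pair ranks of 3829 and 224 by fold and 2814.5 and 464.5 by reads. It lies within 50 kb of Cldn4 as well. Near Itga6, an integrin gene, all 4 regions at 48 h were shared, the strongest at 15.4 and 11.5, and 3 further ones were 96 h only. Epcam had 1 region, called at 48 h only, and Fn1 had 2 of 4 called at 96 h. Cldn7, Ocln, Tjp1, Itgb1, Lama1 and Vim had none. As a comparison, 16 genes of unrelated tissues had 10 regions at 48 h, 5 of them called at 96 h, near Myl1, Apoa2, Myh6 and Ckm. At Mb a region was 96 h only, and 11 of the 16 genes, among them Alb, Ins1 and Hbb-bt, had none.

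**Figure D5:**
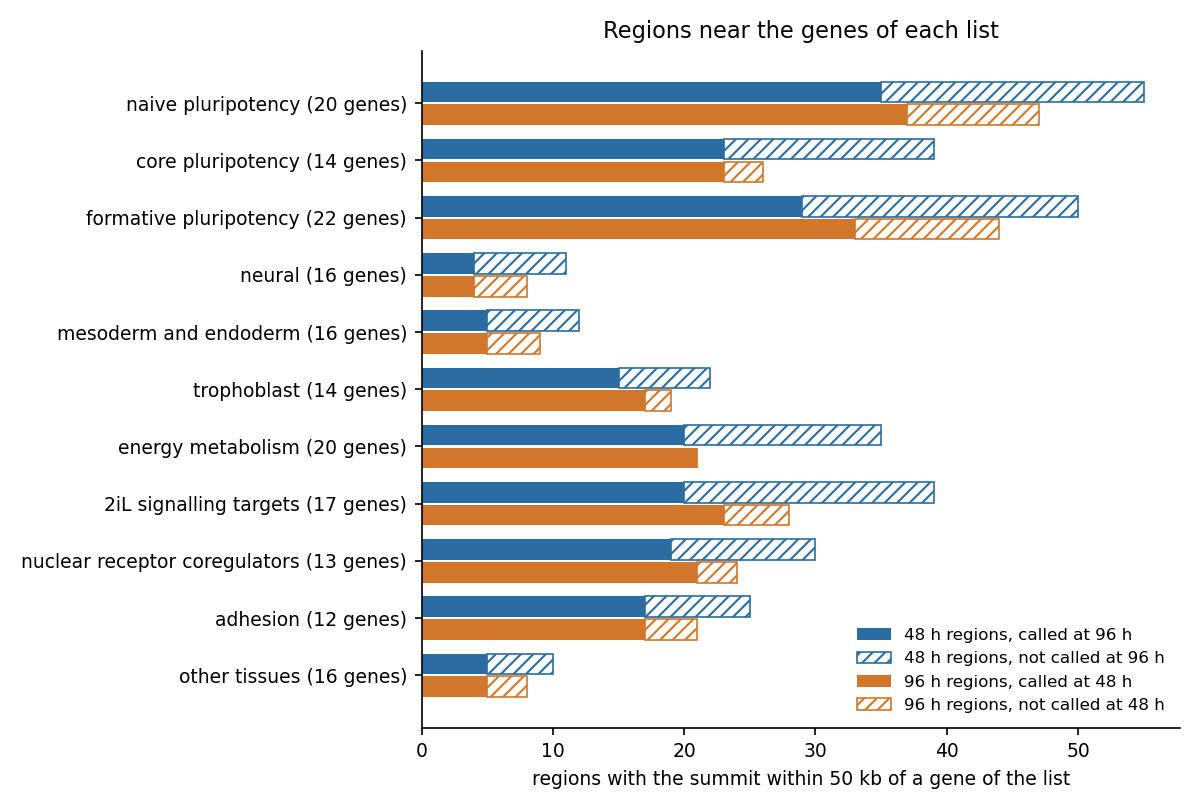
Number of regions with the summit within 50 kb of a gene of each list (x axis) at 48 h (blue) and 96 h (orange); filled parts were called at the other time and hatched parts were not. The energy metabolism list has no hatched part at 96 h, with 21 of 21 regions called at 48 h.

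Both microRNA clusters of embryonic stem cells that share a seed had a region at 48 h, and one of them at 96 h; they were chosen after their values were seen. Their mature sequences from RefSeq are shown because both clusters make members of one seed family, with the seed, bases 2 to 8, in capitals.
mmu-miR-291a-3p: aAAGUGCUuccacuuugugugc
mmu-miR-294-3p: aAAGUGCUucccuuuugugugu
mmu-miR-295-3p: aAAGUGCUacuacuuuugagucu
mmu-miR-302b-3p: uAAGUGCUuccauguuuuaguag
mmu-miR-302d-3p: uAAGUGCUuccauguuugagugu
Within 10 kb of the Mir290 to Mir295 hairpins on chromosome 7 there were 3 regions at 48 h and 4 at 96 h, all shared. The strongest, at chr7:3217074-3218454, 945 bp before the first hairpin, had a fold of 13.1 (11.6 to 14.8) at 48 h and 12.7 (10.9 to 14.7) at 96 h. The region at the end of the cluster had 7.38 and 7.50. At the Mir302 and Mir367 cluster on chromosome 3 the single region, at chr3:127544356-127545332, had 3.62 (2.74 to 4.69) and was 48 h only. Of 1005 microRNA hairpins, 183 had a 48 h region within 10 kb and 120 a 96 h region.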

How the data were processed

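Chromatin bound by ESRRB was measured in 1 precipitated library per time. Lists were deposited per library on mm10; the submitters' processing notes name bcl2fastq 2.20.0.422, BWA, SAMtools, Picard and MACS2, and the role of each tool, filters and calling thresholds are not stated there. The authors deposited for each summit a fold enrichment (a ratio of reads to background), −log10 p and −log10 q values, a summit offset and an integer score, which was not used.

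Python 3.11.15 with numpy 2.4.6, pandas 2.3.3, scipy 1.17.1 and matplotlib 3.10.9 was used, and overlaps were checked with bedtools 2.31.1. Reads and background at a summit were solved from the deposited fold and p under the usual MACS2 formulas, an assumption that 100% of read numbers met by coming out whole within 0.05. Overlap and read recovery were tested on simulated data. Gene positions and promoter windows came from RefSeq, GRCm38.p6. With 1 library a time there was no test.

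Named by rule were the 10 highest regions of each list and of each single-time class, the 10 largest gains and losses in rank among one-to-one pairs, the 5 genes with most regions of each single-time class, up to 6 genes per list with an unshared region, and up to 5 promoters per class with the element. Regions and lists were chosen with earlier results of these data known. The alternatives were the caller's q, list length, overlap, ranking measure and distance to a gene. A few genes picked by these criteria are left unreported.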

Additional observations from a re-analysis of the deposited data

How the results depend on the processing

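The share of 48 h regions called at 96 h and of 96 h regions called at 48 h was 61.7% and 63.1% with lists of equal length, 43.2% and 67.5% where shared regions had to cover 50% of each other, and 46.8% and 73.2% with summits within 200 bp. In the strongest 20% of each list these shares were 93.1% and 97.2%, 78.3% and 90.2%, and 86.5% and 96.4% under the same settings, and 93.2% and 99.2% when ranked by −log10 q. With q of 1e-05 or less the share of 96 h regions called at 48 h was 81.1%. Genes near a 48 h and a 96 h region numbered 5932 and 4403 within 10 kb, 5587 and 4113 by nearest gene, and 8073 and 8657 with lists of equal length, where the direction turned. The following alternatives were chosen after seeing the data. The difference in the share within 1 kb of a start site, 96 h shared minus 96 h only, was -0.92 percentage points and turned to 0.413 with 50% overlap, and was -6.82 with lists of equal length; the cause was not tested. Of the list shares, 5 of 22 moved beyond their interval with 50% overlap, all of them shares of 96 h regions. All 20 named pairs kept their direction by −log10 q and by reads. Both measures come from the same summits as the fold that picked the pairs, so they are no independent check. No paired analysis was possible because each time has 1 library. A median 96 h only region rested on 33 reads; no setting varied the depth.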
